A study of Mus musculus with 18 samples.

Results

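The semaphorins, plexins and neuropilins were described across mouse marrow-derived mesenchymal stem cells (MSC), adherent marrow progenitors that can form fat or bone, in which actin had been disturbed in several ways. Members were selected by symbol: every protein-coding gene whose symbol began with Sema or Plxn followed by a digit or letter, together with Nrp1 and Nrp2. This gave 31 genes of the 54347 in the table, 20 semaphorins, 9 plexins and 2 neuropilins. A count of 10 in at least 3 of the 18 libraries was reached by 25 of them (16 semaphorins, 7 plexins and both neuropilins), and by 14163 genes in all. The family was chosen with the rise of Sema3c after Arp4 knockdown in these same libraries already known, so that change is given here as a description with no test.

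All cells carried the C57BL/6J strain label and were labelled male, and no age was given. In the first experiment cells were left without treatment (control), or were treated for 24 h with CK666, which blocks Arp2/3 and so the branching of actin filaments, or with cytochalasin D (CytoD), which caps growing filament ends. In the second every culture was transfected, with a control siRNA that the labels also call mock (siControl), with an siRNA against Arp4 (siArp4), or with the Arp4 siRNA followed by CK666 (siArp4+CK666). Arp4 is the nuclear actin-related protein encoded by Actl6a. Each group held 3 libraries from separate preparations. The paper states that a primary line made from several male mice served for all its studies. The p-values thus measure the spread between preparations of that line and not between animals. No group given siControl and CK666 was among these RNA libraries. RNA was measured in bulk cultures, in which fewer expressing cells and less RNA per cell cannot be told apart.

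Semaphorins are guidance ligands. Class 3 semaphorins are secreted, classes 4, 5 and 6 span the membrane, and Sema7a is held at the surface by a lipid anchor. Plexins are their main receptors, and the intracellular part of a plexin acts on small GTPases that steer actin filaments and integrin adhesion. Most class 3 ligands also need a neuropilin as co-receptor, while Sema3e can bind Plxnd1 directly. Outside the nervous system the family acts in blood vessels, immune cells and bone, where Sema3a from osteoblast-lineage cells is known to restrain bone resorption.

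Of the 31 members, 26 had a promoter in RefSeq (GRCm38.p6, 250 bases before to 50 after a gene start). The promoters of the 4 members with the largest called changes in siArp4 vs siControl or CK666 vs control, averaging 50 or more normalized counts, are shown because 3 of them (Sema3c, Sema3e and Sema7a) belonged to genes with higher counts after the knockdown. They lie at chr5:17574566-17574865 (Sema3c), chr5:12382916-12383215 (Sema3d), chr9:57939862-57940161 (Sema7a) and chr5:14025026-14025325 (Sema3e), each on the plus strand. The Sema3c window starts inside the gene as GENCODE vM21 draws it, since that annotation has a start further upstream. The Sema3d window ends at 12383215, before the vM21 gene start at 12383385. Capitals mark matches on either strand to the motifs searched, which were AP-1 (TGANTCA), TEAD (GGAATG), ATF4 (TGATGNAA), NF-Y (CCAAT), Sp1 (GGGCGG), the core promoter element of TBP (TATAAA) and the CArG box of SRF.
Sema3c: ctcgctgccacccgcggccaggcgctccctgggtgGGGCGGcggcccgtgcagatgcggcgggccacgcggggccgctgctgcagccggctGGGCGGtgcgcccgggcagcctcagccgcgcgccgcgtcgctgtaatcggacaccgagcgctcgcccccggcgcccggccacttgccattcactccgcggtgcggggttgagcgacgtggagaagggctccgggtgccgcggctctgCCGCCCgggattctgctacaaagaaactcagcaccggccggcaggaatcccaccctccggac
Sema7a: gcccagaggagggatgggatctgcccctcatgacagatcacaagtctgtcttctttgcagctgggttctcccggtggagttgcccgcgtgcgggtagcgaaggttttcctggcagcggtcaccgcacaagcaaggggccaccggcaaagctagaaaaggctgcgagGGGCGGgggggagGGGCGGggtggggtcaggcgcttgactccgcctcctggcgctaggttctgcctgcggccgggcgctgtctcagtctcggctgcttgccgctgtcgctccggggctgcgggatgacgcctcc
Sema3e: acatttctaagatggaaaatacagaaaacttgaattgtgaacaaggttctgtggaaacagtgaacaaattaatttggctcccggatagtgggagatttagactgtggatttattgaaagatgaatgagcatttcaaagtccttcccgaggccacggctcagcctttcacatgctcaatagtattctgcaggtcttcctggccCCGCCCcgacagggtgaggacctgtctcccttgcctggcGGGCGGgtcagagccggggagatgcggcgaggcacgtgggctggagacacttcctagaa
Sema3d: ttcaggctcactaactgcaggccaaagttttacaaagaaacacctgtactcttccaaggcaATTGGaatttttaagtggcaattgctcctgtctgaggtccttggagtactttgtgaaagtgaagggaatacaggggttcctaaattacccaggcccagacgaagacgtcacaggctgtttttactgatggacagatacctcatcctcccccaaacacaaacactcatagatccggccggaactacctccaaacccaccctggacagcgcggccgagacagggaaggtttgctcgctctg

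The Sp1 letters occurred 3 times in the Sema3c promoter and 2 times each in those of Sema7a and Sema3e, and they occur in 35.7% of the 32851 RefSeq promoters of this length. In the Sema3d promoter 1 match to NF-Y was found, letters that 37.4% of all promoters hold. No match overlapped another. Letters of the other motifs were not in these 4 windows. Their shares of all promoters were 7.81% for AP-1, 14.7% for TEAD, 3.97% for ATF4, 13.6% for the TBP element and 1.63% for the CArG box. The GC content was 75.7% for Sema3c, 67.3% for Sema7a, 50.7% for Sema3e and 49.7% for Sema3d, against a median of 52.7% over all promoters. Sema3d, Sema3a, Sema3e and Sema3c lie in this order within 5.35 Mb of chromosome 5. In siArp4 vs siControl, Sema3e was called higher and Sema3a and Sema3d were not called. Sema3c was also higher there, a change known before the family was chosen and given as a description.

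Library totals ran from 18075610 to 24733212 estimated counts, with 12563 to 13234 genes per library at a count of 10 or more and 1.30% to 3.36% of counts from mitochondrial genes. The mitochondrial share was 1.30% to 2.65% in siControl, 2.67% to 3.26% in siArp4 and 2.86% to 3.36% in siArp4+CK666, above siControl in every knockdown library, and its part in the results was not tested. Actl6a stood at 720 to 1127 normalized counts in siControl, at 19.0 to 57.2 in the knockdown and at 9.52 to 22.9 once CK666 was added, so the knockdown groups held 4.66% and 1.87% of the siControl mean. Of 10 stromal markers, Pdgfra, Pdgfrb, Cd44, Cxcl12, Vcam1 and Ly6a were above 100 normalized counts in every library, Eng (5.29 to 75.5) and Lepr (0.930 to 37.9) were low, Nt5e stayed under 10 and Thy1 was at 0 in all 18. Their sum was 64230 to 86680 in siControl, 26090 to 27500 in siArp4 and 26860 to 29830 in siArp4+CK666, against 47960 to 50900 in control, 26810 to 31060 after CK666 and 121900 to 125800 after CytoD. Cxcl12 was the largest part of the sum in every group, with a mean of 65310 in siControl, 12260 in siArp4 and 107700 after CytoD. Among the markers above 100 counts, the siArp4 means of Cxcl12, Cd44 and Vcam1 were below siControl. Those of Pdgfra, Pdgfrb and Ly6a were above it. The part of these differences in the results was not tested. The summed markers of haematopoietic cells ran from 14.3 to 181 per library, most of it Csf1r, and those of endothelial cells from 0 to 9.82. Libraries also differed in the balance of long and short transcripts. The median log2 deviation from the group mean of 1471 genes with transcripts over 6000 bases, minus that of 1754 genes under 2000 bases, was 0.92 in siControl replicate 1 and -0.95 in siControl replicate 2. It was -0.70 and 0.46 in CK666 replicates 1 and 2, 0.48 and -0.51 in siArp4+CK666 replicates 1 and 3, and between -0.21 and 0.26 in the other 12 libraries.

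Several members with abundant transcripts moved with or against this balance inside their group. Plxnb2, whose longest transcript of 6497 bases is itself in the long class, held 2371, 12041 and 6395 normalized counts in the siControl replicates in order. Sema3a, which signals through Nrp1 and A-type plexins, held 3164, 677 and 1632 in the same libraries. Plxna1 held 4235, 1621 and 1937. The siControl library with the highest balance towards long genes was thus the highest for Sema3a and Plxna1 and the lowest for Plxnb2, and the siControl range of each overlapped that of the siArp4 and siArp4+CK666 libraries. None of these 3 genes was called in the second experiment, where their log2 standard errors were 0.38 to 0.52.

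**Figure D1:**
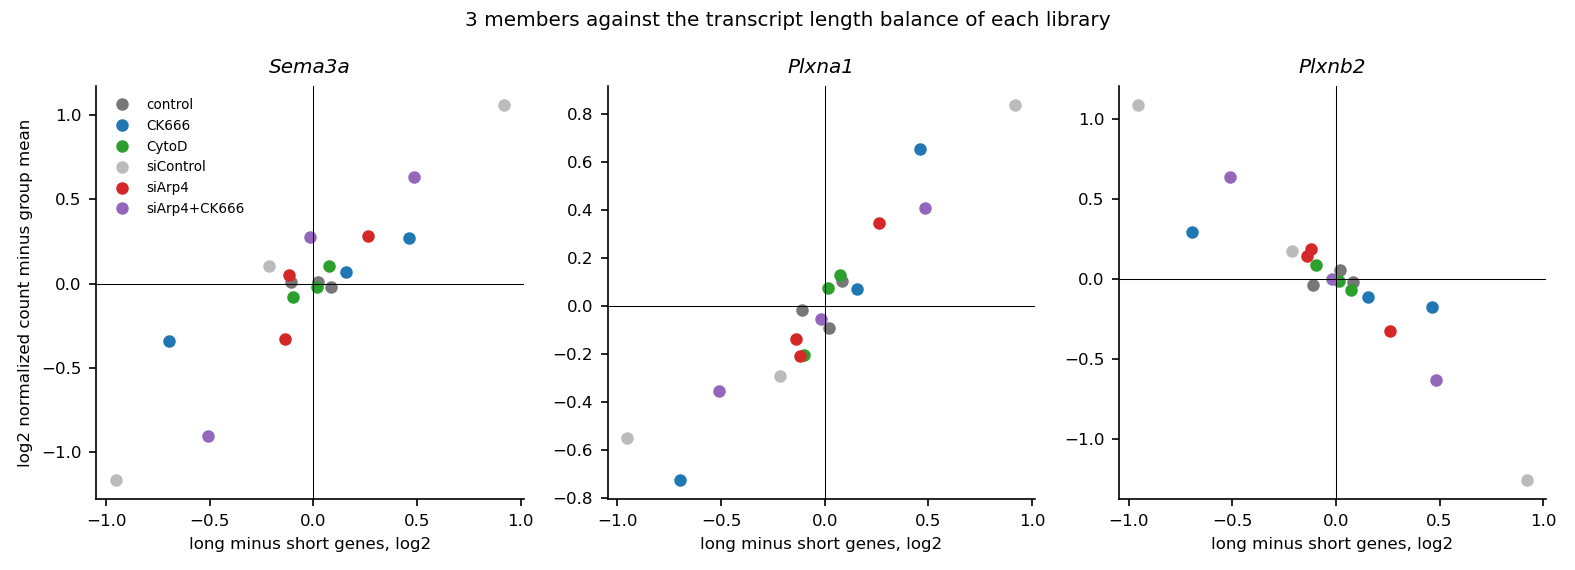
Each point is 1 of 18 libraries, coloured by group. The horizontal axis is the median log2 deviation of long genes minus that of short genes, and the vertical axis the log2 normalized count of Sema3a, Plxna1 or Plxnb2 minus its group mean. siControl replicates 1 and 2 lie at 0.92 and -0.95 on the horizontal axis. Sema3a and Plxna1 rise along it and Plxnb2 falls, a description over libraries that share their groups.

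Per kilobase of exon, plexins and neuropilins were among the most abundant members in control cells, and the 25 over the count minimum ran down to 0.0298 for Plxnb3. The highest levels, in CPM per kilobase (CPM being counts scaled to equal library totals), were 33.8 ± 1.19 for Plxnb2, 31.7 ± 2.33 for Plxna1, 24.1 ± 1.53 for Nrp2, 19.3 ± 1.38 for Sema7a and 12.1 ± 0.093 for Sema3a (SD, n = 3). The ranges of Plxnb2 and Plxna1 overlapped, as did those of Sema3a and Nrp1, which followed at 11.5 ± 0.803. Among 24 pairs of neighbours in the order of the 25 members, ranges overlapped in 14 pairs in control and in 22 pairs in siControl. Sema7a was the most abundant semaphorin of control cells on this scale, but per kilobase of the longest transcript Sema3a (28.3) lay above Sema7a (19.3) with no overlap, and Nrp2 (42.5) led Plxnb2 (40.2) with overlapping ranges. In siArp4 the Sema7a level of 126.7 ± 3.52 was above that of every other member. Sema3c was at 3.37 ± 0.171 in control, the rank 10 position, at 0.454 ± 0.165 in siControl, and at 12.1 ± 1.77 in siArp4. The difference between control and siControl cannot be told apart from transfection and from the experiment.

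**Figure D2:**
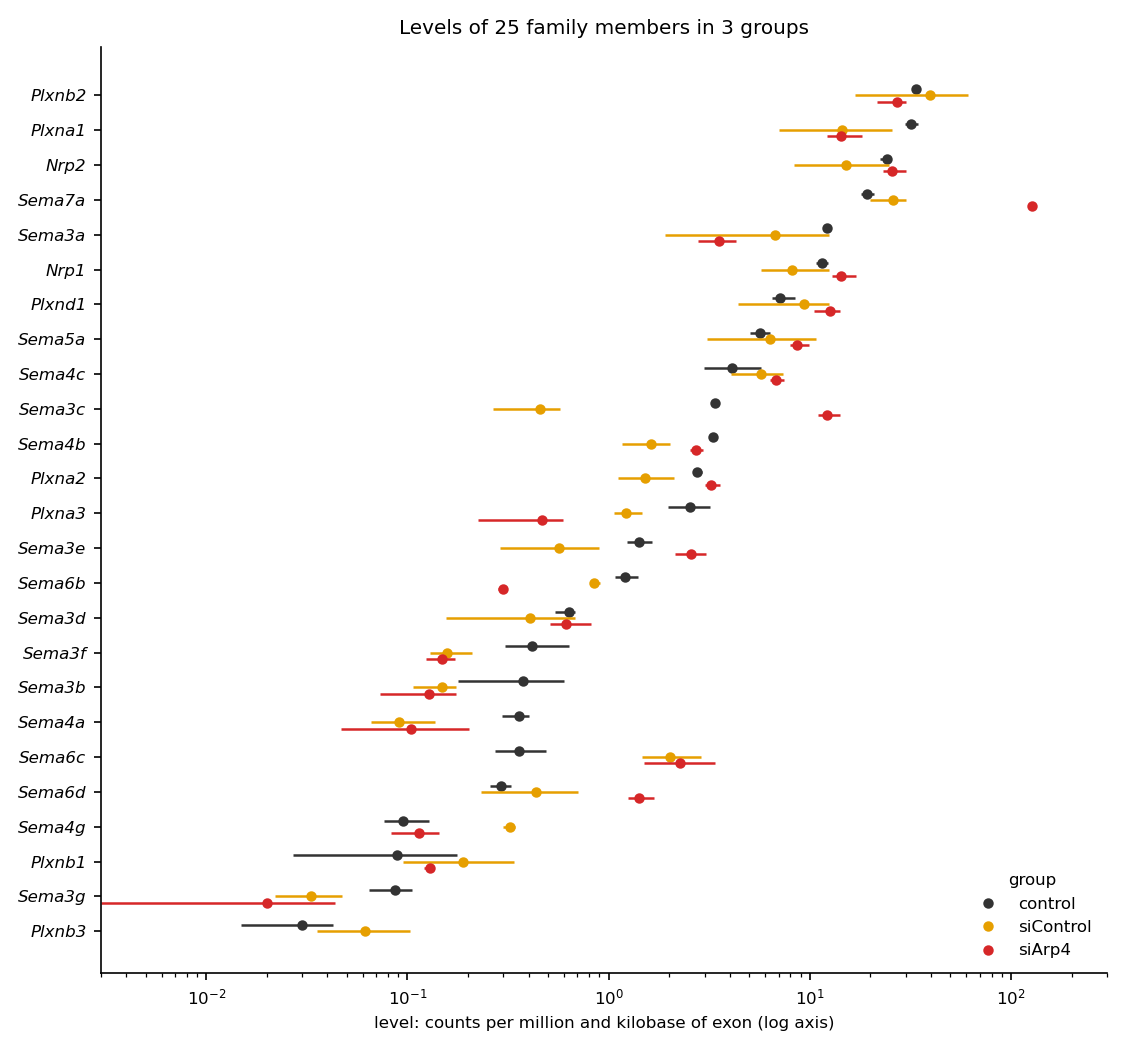
Points give the mean level of 25 members in CPM per kilobase of exon (log axis) in control, siControl and siArp4 cells, and lines the lowest and highest of 3 libraries. A line that reaches the left edge includes a library at 0, and a group with 3 libraries at 0 has no point. Sema7a in siArp4 lies furthest right, and of its 3 groups Sema3c is lowest in siControl.

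At the low end, Plxnb3 (10 counts in 3 libraries, at most 25.8) and Sema3g (in 4 libraries, at most 12.0) were just inside the count minimum. Plxnc1, a receptor of Sema7a, was just outside it, with 10 counts in 2 libraries and 49.5 normalized counts in siControl replicate 1 against 0 to 14.9 in the rest. Plxna4, Sema4d, Sema4f, Sema5b and Sema6a never reached 10 counts, and their highest count was between 2.94 and 7.79. Sema4d, the ligand of Plxnb1 known from osteoclasts, was thus near the detection limit in these cells, at up to 7.79 counts. Overlapping genes on the opposite strand, which unstranded libraries cannot separate, had a mean count of at most 23.7, and the highest was D430040D24Rik over Sema4c.

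Calls required an adjusted p below 0.01 and a log2 fold change of more than 1 in size. After CK666, 1 member was higher and 6 were lower than in control, beside 4.89% and 6.06% of all genes tested. After CytoD, 4 were higher and 2 lower, beside 4.8% and 4.32%. Between the drugs, 1 was higher and 5 lower in CK666 than in CytoD, beside 5.08% and 6.74%. These comparisons share libraries, since CK666 and CytoD were set against the same control libraries. Of the 31 members 26 were tested for CK666, with a median log2 fold change of -0.04 (all genes 0.01), and 25 for CytoD, with a median of 0.08 (all genes 0.01).

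After the knockdown, 5 members were higher and 3 lower in siArp4 than in siControl, beside 6.69% and 9.49% of all genes tested, and Sema3c, the gene that led to the choice of the family, is 1 of the 5. In siArp4+CK666, set against the same siControl libraries, 6, again with Sema3c, were higher and 4 lower, beside 8.06% and 12.4%. Adding CK666 to the knockdown left 1 member higher and 2 lower than in siArp4, 1 of them Sema3c, beside 1.63% and 4.12%. The 26 members tested against siControl had a median log2 fold change of 0.13 in siArp4 and 0.12 in siArp4+CK666 (all genes -0.05 in each). Over the 7 comparisons, counting the difference between the CK666 effects, 10 members over the count minimum were called in none: Sema3a, Sema3b, Sema3g, Sema4a, Sema4b, Sema4c, Plxna1, Plxnb1, Plxnb2 and Nrp1. The other 15, Sema3c among them, were called at least once. The share of all genes called at least once is not given here, so neither count is compared with it.

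**Figure D3:**
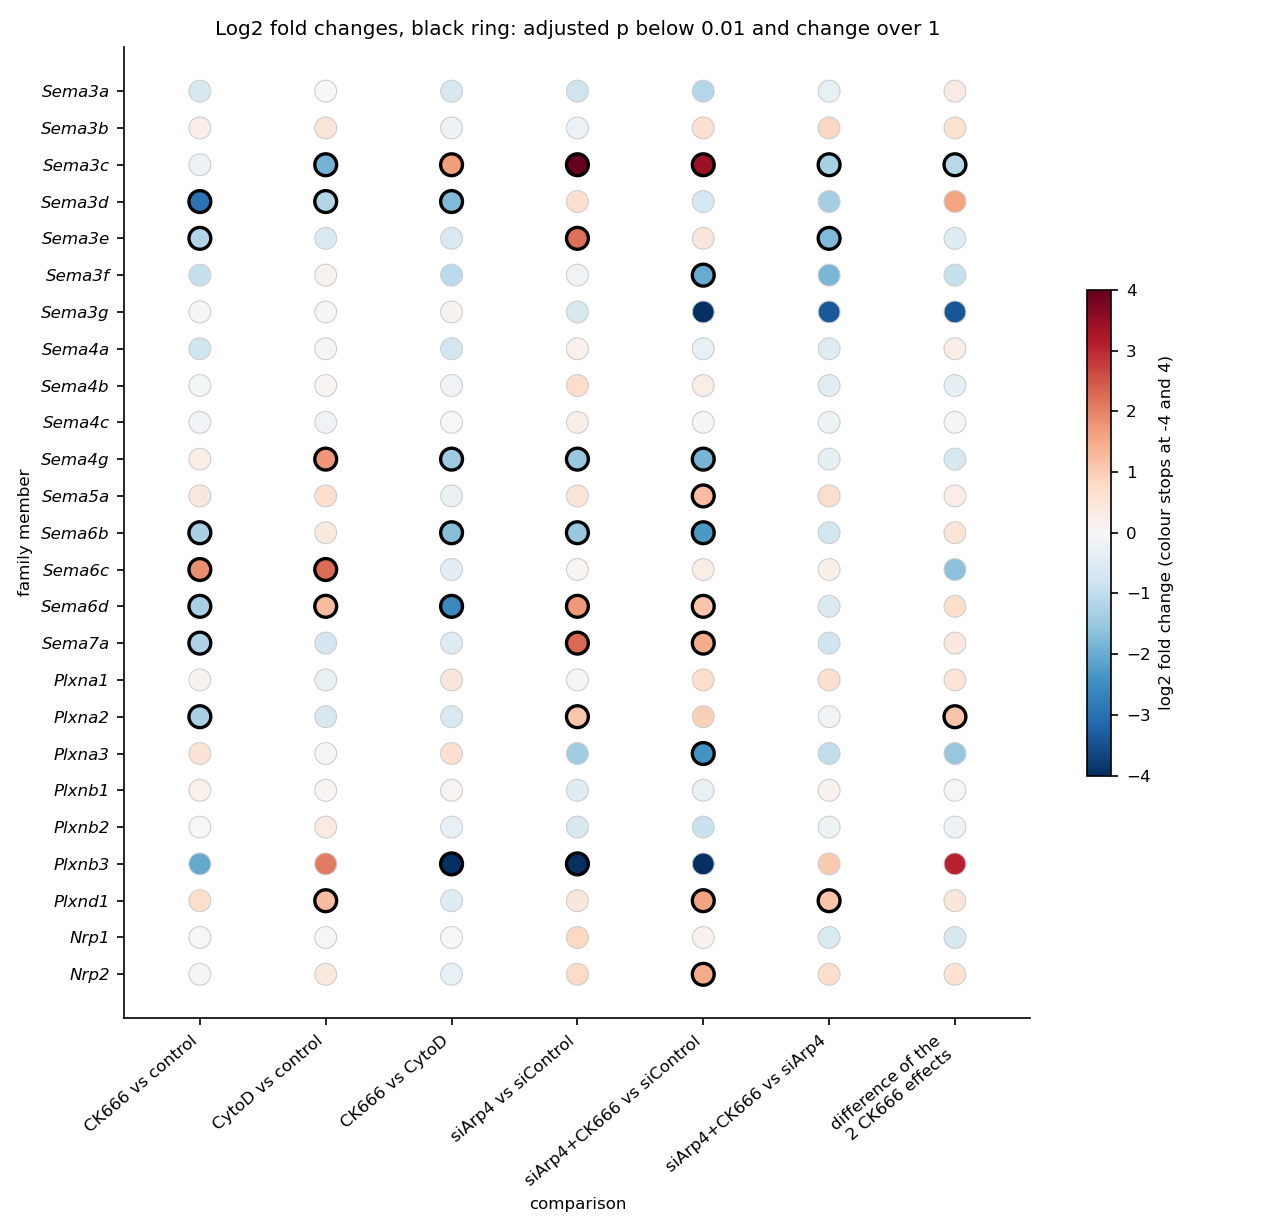
Rows are 25 members, columns the 7 comparisons, and the colour is the log2 fold change from blue (lower in the first-named group) to red (higher), stopping at -4 and 4. A black ring marks an adjusted p below 0.01 with a change over 1. Sema6d carries rings of opposite colour for CK666 (-1.32) and CytoD (1.26). The ring of Sema3c in siArp4 vs siControl was known before the family was chosen, and its other rings in transfected cells use the same libraries.

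Sema3c (chr5:17574281-17730268, plus strand) is a secreted ligand of the neuropilins and is known for its part in the cardiac outflow tract and in tumour growth. In the second experiment it held 67.9, 47.8 and 83.1 normalized counts in siControl, 1631, 1678 and 2073 in siArp4, with 908, 653 and 580 in siArp4+CK666. The 3 groups did not overlap, and siArp4 lay above siArp4+CK666, which lay above siControl. The fitted level in siArp4 was 26.9-fold that of siControl (log2 fold change 4.75, SE 0.27). In siArp4+CK666 it was 10.7-fold that of siControl (log2 3.42, SE 0.27), and 2.51-fold under siArp4 (log2 -1.33, SE 0.26). These 3 values use the siControl or siArp4 libraries whose difference led to the choice of the family, so each is a description with no test.

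In the first experiment Sema3c went the other way with CytoD. It held 526, 471 and 495 normalized counts in control, 384, 493 and 400 after CK666, and 131, 142 and 130 after CytoD. The CytoD libraries were below all others, while CK666 and control overlapped. CytoD lowered it 3.70-fold (log2 -1.89, SE 0.16, DESeq2 adjusted p 1.4e-30), and CK666 libraries were 3.17-fold above CytoD (log2 1.66, adjusted p 6.7e-24). For CK666 vs control the log2 fold change was -0.22, with a 95% interval from -0.51 to 0.06 and an adjusted p of 0.23. In CPM the means were 24.1 in control, 3.24 in siControl and 86.5 in siArp4.

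Sema3e (chr5:14025276-14256689, plus strand), the ligand that binds Plxnd1 without a neuropilin, was lowered by CK666 in both settings. It held 265, 237 and 317 normalized counts in control, 89.4, 127 and 136 after CK666, and 203, 173 and 158 after CytoD. The CK666 libraries lay below every other library of the experiment, 2.32-fold under control (log2 -1.21, SE 0.22, DESeq2 adjusted p 2.4e-07), and the CytoD value was not called (log2 -0.62, adjusted p 0.013). After transfection siControl held 152, 67.9 and 99, siArp4 held 411, 485 and 581, and siArp4+CK666 held 155, 148 and 135. The siArp4 libraries stood above both other groups, 4.60-fold over siControl (log2 2.20, SE 0.30, adjusted p 9.8e-12), and siArp4+CK666 was 3.37-fold under siArp4 (log2 -1.75, SE 0.30, adjusted p 2.0e-07). Between siArp4+CK666 and siControl the ranges overlapped, with a log2 fold change of 0.45 and an adjusted p of 0.25.

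Sema3d (chr5:12383385-12588948, plus strand), a secreted ligand known from vessel and heart patterning, had the largest called fall of the family after CK666. Control libraries held 122, 95.4 and 120 normalized counts, CK666 libraries 14.7, 20.4 and 8.37, and CytoD libraries 55.3, 45.5 and 45.3. The 3 groups did not overlap, and CytoD lay between the others. The fall with CK666 was 7.81-fold (log2 -2.97, SE 0.35, DESeq2 adjusted p 1.1e-15) and with CytoD 2.31-fold (log2 -1.21, SE 0.30, adjusted p 3.6e-04). CK666 was below CytoD by 3.38-fold (log2 -1.76, adjusted p 9.6e-06). The CytoD call was lost without control replicate 1 (log2 -1.15, adjusted p 0.014) or control replicate 3 (log2 -1.16, adjusted p 0.012). In the second experiment no call was made for Sema3d, whose siControl values of 106, 34.0 and 67.2 overlapped those of both other groups.

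The other secreted semaphorins moved less or were sparse. Sema3a was below control in all 3 CK666 libraries (log2 -0.68, SE 0.15, DESeq2 adjusted p 3.0e-05), under the fold required, and its CytoD value was -0.01. Sema3f, which prefers Nrp2, held 12.6, 27.7 and 14.0 normalized counts in siControl and 3.17, 6.68 and 3.16 in siArp4+CK666. The ranges did not overlap, and the log2 fold change was -2.02 (adjusted p 0.0088), but the call was lost on leaving out any 1 of the 9 libraries of the experiment, with adjusted p from 0.010 to 0.076. Sema3b and Sema3g were called in no comparison.

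Among the membrane semaphorins, Sema7a (chr9:57940112-57962865, plus strand) separated every group of both experiments. It is the lipid-anchored class 7 member, a ligand of Plxnc1 and of beta-1 integrins. Its normalized counts were 1233, 1406 and 1305 in control, 513, 589 and 576 after CK666, and 775, 833 and 775 after CytoD. The 3 groups did not overlap, and CK666 was lowest. CK666 lowered it 2.35-fold (log2 -1.23, SE 0.11, DESeq2 adjusted p 2.4e-27), and CytoD gave a smaller difference of log2 -0.73 (SE 0.11, adjusted p 3.3e-10), under the fold required.

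Among transfected cells Sema7a held 1813, 1675 and 1857 normalized counts in siControl, 8633, 8552 and 8840 in siArp4, with 4990, 5344 and 4668 in siArp4+CK666. Again the groups were apart, in the order siControl, siArp4+CK666, siArp4. The knockdown raised it 4.87-fold (log2 2.28, SE 0.11, DESeq2 adjusted p 3.1e-85), and siArp4+CK666 remained 2.81-fold above siControl (log2 1.49, SE 0.11, adjusted p 1.8e-36). Within the knockdown, CK666 gave log2 -0.79 (SE 0.11, adjusted p 1.5e-10), not past the fold required.

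Sema6d (chr2:124089969-124667770, plus strand), a transmembrane ligand of Plxna1, moved in opposite directions with the drugs. Control libraries held 63.8, 70.1 and 55.9 normalized counts, CK666 libraries 22.6, 30.6 and 23.2, and CytoD libraries 154, 148 and 154. Control lay between the drugs with no overlap. CK666 lowered it 2.49-fold (log2 -1.32, SE 0.28, DESeq2 adjusted p 1.4e-05) and CytoD raised it 2.40-fold (log2 1.26, SE 0.23, adjusted p 6.2e-07). The direct difference between CK666 and CytoD was 5.98-fold (log2 -2.58, SE 0.27, adjusted p 8.7e-21).

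After transfection, Sema6d held 136, 62.9 and 80.3 normalized counts in siControl, 275, 295 and 364 in siArp4, with 277, 202 and 133 in siArp4+CK666. The siArp4 libraries were above all siControl libraries, by 3.33-fold (log2 1.74, SE 0.37, DESeq2 adjusted p 1.9e-05). For siArp4+CK666, which overlapped siControl, the log2 fold change was 1.13 (SE 0.37, adjusted p 0.0077). That call was lost without siControl replicate 2 (log2 0.91), siControl replicate 3 (1.02), any of the siArp4 replicates (1.13), siArp4+CK666 replicate 1 (0.85) or siArp4+CK666 replicate 2 (1.14). With the length trend removed the log2 fold change was 0.95 (DESeq2 adjusted p 2.9e-04), under the fold required.

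Sema6b (chr17:56123085-56140343, minus strand), a ligand of A-type plexins, was low and fell in both experiments. It held 88.0, 115 and 94.2 normalized counts in control, 55.0, 31.6 and 34.4 after CK666, and 143, 114 and 135 after CytoD. CK666 lay below the other groups, 2.46-fold under control (log2 -1.30, SE 0.28, DESeq2 adjusted p 2.8e-05) and 3.24-fold under CytoD (log2 -1.70, SE 0.28, adjusted p 1.2e-08). Among the transfected cultures siControl held 65.4, 83.0 and 66.3, siArp4 25.3, 23.8 and 25, and siArp4+CK666 9.52, 19.1 and 14.8. These groups did not overlap, and the log2 fold change from siControl was -1.53 in siArp4 (SE 0.35, adjusted p 1.0e-04) and -2.29 in siArp4+CK666 (SE 0.38, adjusted p 1.8e-08).

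Sema6c (chr3:95160457-95174024, plus strand), the third class 6 member over the count minimum, rose with either drug. Control libraries held 33.9, 38.0 and 60 normalized counts, CK666 libraries 196, 114 and 165, and CytoD libraries 180, 328 and 131. Control was below both drug groups, which overlapped each other. The rise was 3.61-fold with CK666 (log2 1.85, SE 0.38, DESeq2 adjusted p 6.8e-06) and 4.85-fold with CytoD (log2 2.28, SE 0.38, adjusted p 1.5e-08). No call was made in the second experiment, where its log2 fold change from siControl was 0.07 in siArp4 (95% interval -0.75 to 0.89) and all libraries held between 176 and 436.

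Of the class 4 and 5 members over the count minimum, Sema4g and Sema5a were called and Sema4a, Sema4b and Sema4c were not. Sema4g, a transmembrane member at low counts, held 13.5, 14.6 and 22.8 normalized counts in control and 65.9, 64.9 and 40.2 after CytoD, without overlap (log2 1.75, SE 0.41, DESeq2 adjusted p 1.3e-04). It was 2.74-fold lower in CK666 than in CytoD (log2 -1.46, adjusted p 0.0012), a call lost without CK666 replicate 1 (-1.38) or 2 (-1.40) or CytoD replicate 1 (-1.34) or 2 (-1.35). From 53.6, 72.9 and 52.3 in siControl it fell to 26.1, 15.1 and 21 in siArp4 (log2 -1.50, adjusted p 5.1e-04) and to 13.7, 18.1 and 16.9 in siArp4+CK666 (log2 -1.87, adjusted p 1.7e-05). The siArp4 call was lost without siControl replicate 2 (-1.35) or siArp4 replicate 2 (-1.32).

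Sema5a (chr15:32244810-32696341, plus strand), which carries thrombospondin repeats, held 3655, 1468 and 1969 normalized counts in siControl, 3097, 3164 and 3801 in siArp4, with 7266, 5396 and 4077 in siArp4+CK666. The siArp4+CK666 libraries were above all others, by 2.36-fold over siControl (log2 1.24, SE 0.35, DESeq2 adjusted p 0.0019), and siArp4 overlapped siControl. The log2 fold change was under the fold required without siControl replicate 2 (0.98) and with the length trend removed (0.94, DESeq2 adjusted p 9.6e-14). Without siControl replicate 3 (1.12) or siArp4+CK666 replicate 1 or 2 (1.01 or 1.26) the adjusted p was 0.011 to 0.030. Each of these settings ended the call of Sema5a. In siControl and siArp4+CK666 its highest library was also the one with the highest balance towards long genes.

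**Figure D4:**
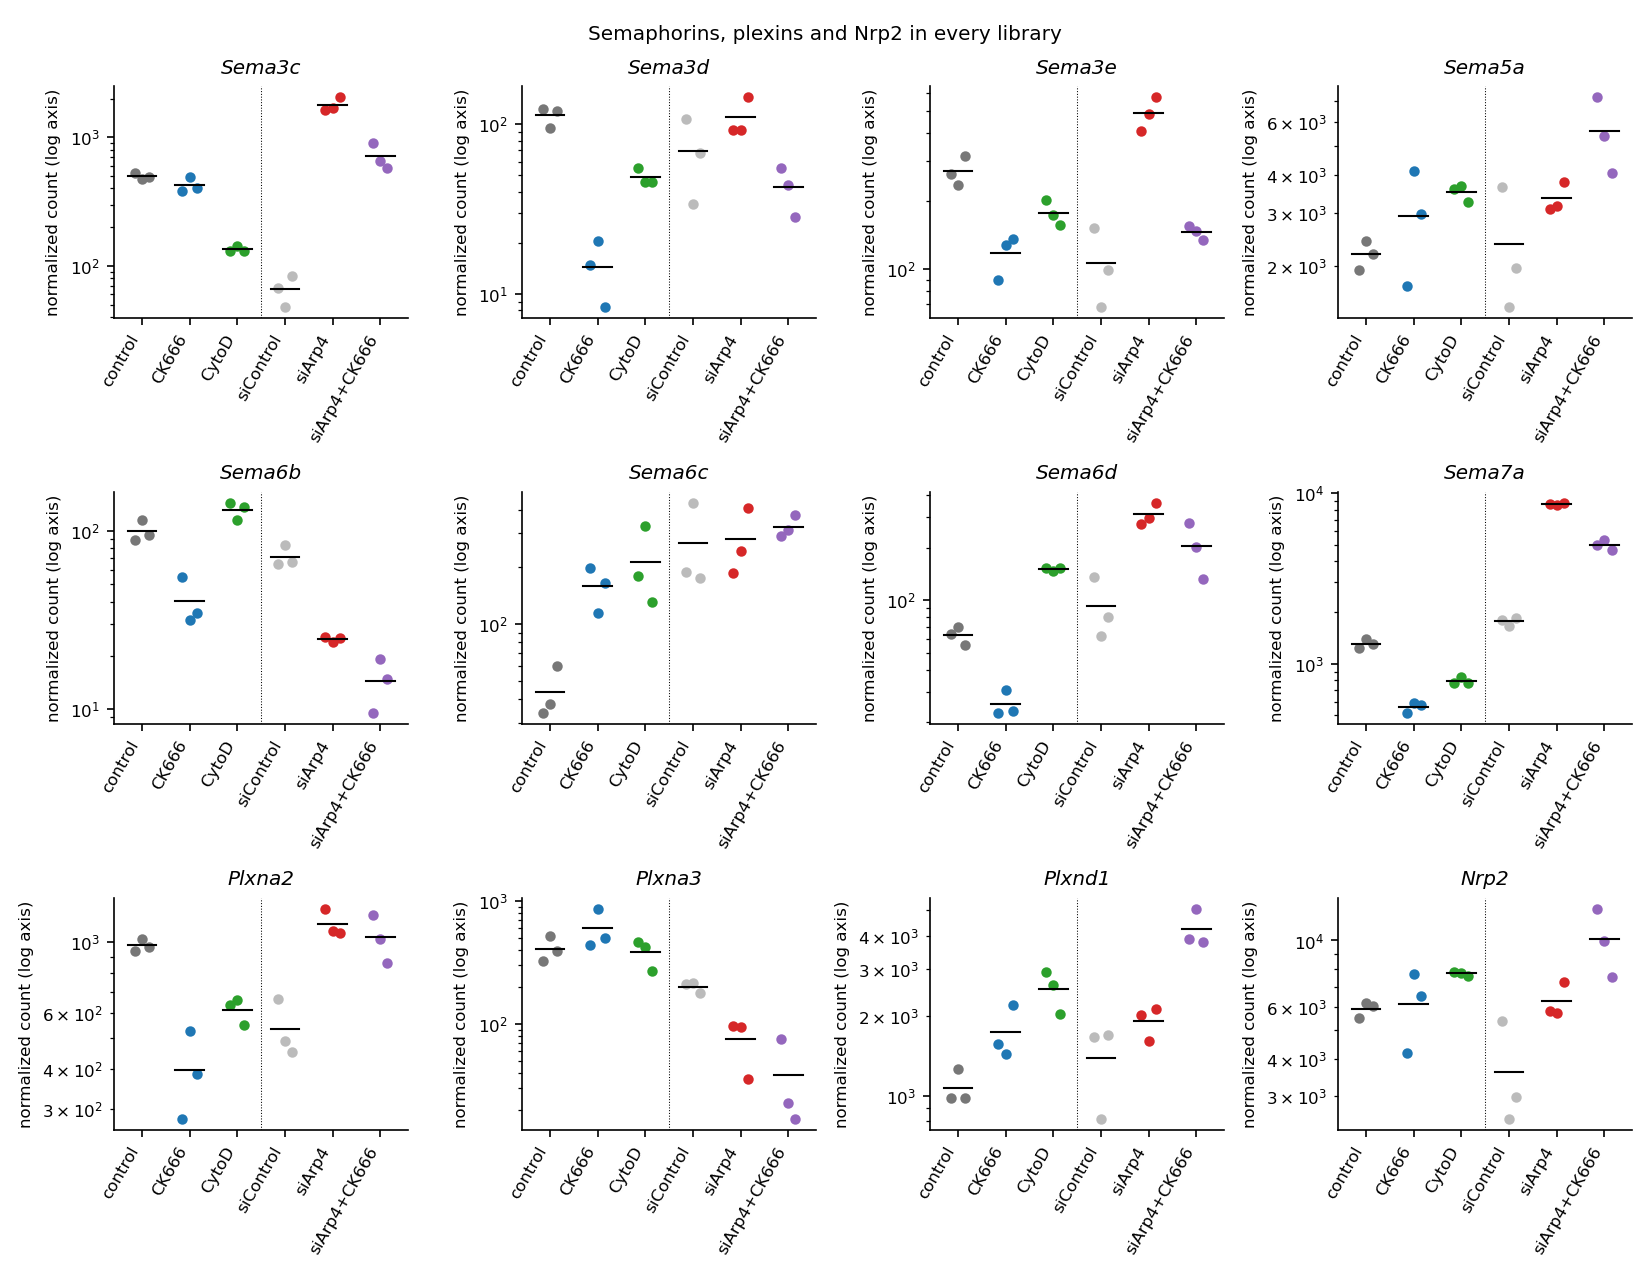
Normalized counts (log axis) of the 8 semaphorins, 3 plexins and Nrp2 named with full values, with 1 point per library, a bar at the mean of 3 libraries, and a dotted line between the experiments, which were normalized separately. Sema3c, Sema3e and Sema7a are highest in siArp4, and Sema3d is lowest after CK666.

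Among the receptors, Plxna2 (chr1:194618218-194816869, plus strand), a receptor of class 3 and class 6 semaphorins, fell with CK666 and rose with the knockdown. It held 943, 1026 and 966 normalized counts in control, 279, 527 and 388 after CK666, and 636, 658 and 552 after CytoD. The 3 groups did not overlap. CK666 lowered it 2.46-fold (log2 -1.30, SE 0.20, DESeq2 adjusted p 1.9e-09), and the CytoD difference of -0.67 (adjusted p 0.0035) was under the fold required. In the second experiment siControl held 663, 489 and 454, siArp4 1278, 1087 and 1070, and siArp4+CK666 1220, 1027 and 863. Both knockdown groups were above siControl, at log2 1.10 (SE 0.22, adjusted p 7.3e-06) and 0.95 (SE 0.22, adjusted p 1.0e-04, under the fold required). The siArp4 call was lost without siControl replicate 3 (0.98) and with the length trend removed (0.91), each time by the fold alone.

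Plxnd1 (chr6:115954811-115995005, minus strand), the receptor of Sema3e and a regulator of vessel patterning, was higher wherever it was called. Control libraries held 977, 1259 and 979 normalized counts, CK666 libraries 1558, 1430 and 2201, and CytoD libraries 2914, 2613 and 2022. Both drug groups were above control, and CytoD was called (log2 1.23, SE 0.20, DESeq2 adjusted p 6.2e-09) while CK666 was under the fold required (log2 0.69, SE 0.20, adjusted p 0.0021). In the second experiment siControl held 1657, 815 and 1689, siArp4 2012, 1606 and 2126, and siArp4+CK666 3894, 5069 and 3800. The siArp4+CK666 libraries were above all others, 3.07-fold over siControl (log2 1.62, SE 0.30, adjusted p 5.8e-07) and 2.22-fold over siArp4 (log2 1.15, SE 0.30, adjusted p 0.0016). The call against siArp4 was lost without siArp4 replicate 1 (1.19) or 2 (1.04) or siArp4+CK666 replicate 2 (1.01). In the same comparison its ligand Sema3e had a log2 fold change of -1.75.

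Plxna3 (chrX:74329066-74344689, plus strand), which pairs with neuropilins, held 210, 215 and 180 normalized counts in siControl, 96.8, 95 and 36.1 in siArp4, with 76.1, 22.9 and 16.9 in siArp4+CK666. Every knockdown library was below every siControl library. The fall in siArp4+CK666 was 5.23-fold (log2 -2.39, SE 0.56, DESeq2 adjusted p 1.1e-04), a call lost in edgeR (-2.40, adjusted p 0.011), and in siArp4 the log2 fold change was -1.41 (SE 0.55, adjusted p 0.033, not called). No comparison of the first experiment was called for this gene, whose libraries held 270 to 871.

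Plxnb3, a B-type plexin at the detection limit, held 12.6, 6.29 and 6.54 normalized counts in siControl and 0 in each siArp4 library. Against a floor of 3 counts over the group it was at least 8.6-fold lower in siArp4, from 25.8 deposited counts over the siControl libraries. In CytoD it held 14.9, 8.71 and 26.8 against 0.982, 0 and 1.86 in CK666 (adjusted p 0.0013, DESeq2). These are counts of a few reads per library, and in 10 of 14 alternative DESeq2 fits of siArp4 vs siControl it was given no adjusted p. Without siArp4+CK666 replicate 1 the adjusted p was 0.012. Plxna1, Plxnb1 and Plxnb2 were called in no comparison.

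Nrp2 (chr1:62703285-62818695, plus strand), co-receptor of Sema3f and Sema3c and a receptor of VEGF-C, held 5360, 2516 and 2990 normalized counts in siControl, 5796, 5722 and 7269 in siArp4, with 12800, 9939 and 7568 in siArp4+CK666. The 3 groups did not overlap. The fitted level in siArp4+CK666 was 2.79-fold that of siControl (log2 1.48, SE 0.32, DESeq2 adjusted p 2.8e-05), and the siArp4 value was 0.79 (SE 0.32, adjusted p 0.043, not called). Its highest siControl and siArp4+CK666 libraries were those with the highest balance towards long genes, and with the length trend removed the log2 fold change was 1.31 and still called. Neither drug gave a call in the first experiment, where the log2 fold change was 0.06 for CK666 and 0.40 for CytoD. Nrp1, co-receptor of Sema3a, stood between 1128 and 3390 in all 18 libraries, and its log2 fold change was 0.82 in siArp4 (SE 0.32, adjusted p 0.030) and 0.19 in siArp4+CK666.

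The effect of CK666 without and with the Arp4 knockdown was then compared, since the study asked whether Arp4 is needed for CK666 to act. The cells also differed by transfection and experiment, and these cannot be told apart from the knockdown. Of 23 members tested, 1 had a higher and 1 a lower difference between the effects, beside 1.9% and 2.52% of all genes tested. The lower one is Sema3c, whose value is a description. For Plxna2 the log2 effect was -1.30 in untransfected cells and -0.14 in the knockdown, a difference of 1.15 (SE 0.30, DESeq2 adjusted p 0.0019). That call was lost without CK666 replicate 1 (0.95), control replicate 2 (1.11), siArp4 replicate 2 (1.11) or 3 (1.10), or siArp4+CK666 replicate 1 (1.02), with the length trend removed (0.78), and in edgeR (1.14, adjusted p 0.021). Without CK666 replicate 1 and with the length trend removed, only the fold was missed.

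For Sema3c the effects were -0.22 and -1.33, a difference of -1.11 (SE 0.26), given as a description because it draws on the siArp4 libraries that led to the choice of the family. Its size was just under 1 without CK666 replicate 2 (-0.99), siArp4 replicate 3 or siArp4+CK666 replicate 3, and the edgeR value was -1.12. Sema3e fell in both settings, by log2 1.21 and 1.75, and its difference of -0.54 was not called (95% interval -1.23 to 0.14, adjusted p 0.35). Sema7a had a difference of 0.43 (SE 0.12, adjusted p 0.0039), under the fold required. Sema6c had the largest difference in size among uncalled members averaging 50 or more normalized counts (log2 -1.63, SE 0.60, adjusted p 0.051), and Sema3d stood at 1.58 (SE 0.57, adjusted p 0.042).

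**Figure D5:**
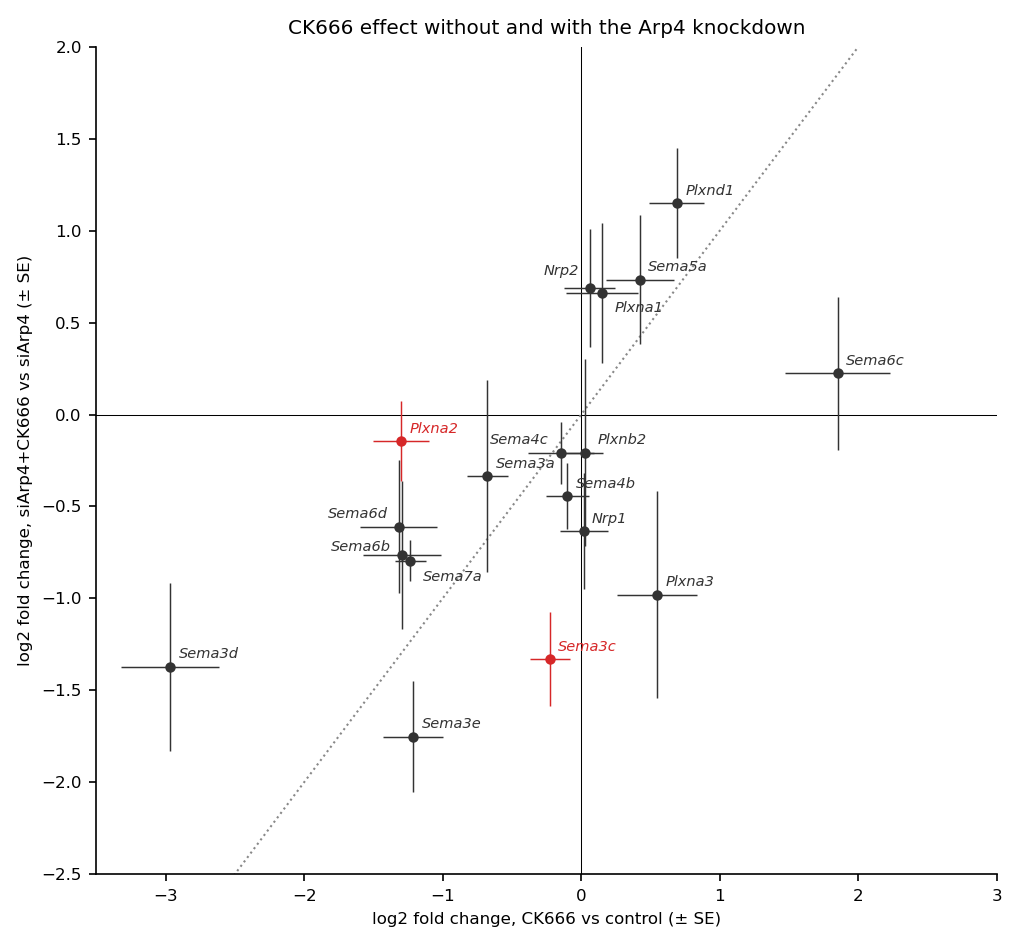
Each point is 1 of 18 members with enough counts to draw, with the log2 fold change of CK666 vs control on the horizontal axis and of siArp4+CK666 vs siArp4 on the vertical axis, bars showing ± SE, and equal effects on the dotted line. Red marks the 2 differences past both thresholds, Plxna2 above the line (-1.30 and -0.14) and Sema3c below it (-0.22 and -1.33). The Sema3c value is a description, since it draws on the libraries that led to the choice of the family.

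A list of 50 genes that act with these ligands and receptors was read in the same way: co-receptors, ligands that share neuropilins, proteases, small GTPases of plexins and other effectors. After CK666 3 of 44 tested were higher and 3 lower, beside 4.89% and 6.06% of all genes tested. With the replicate number as a block Vegfc, 1 of the 3 higher, was not called (log2 1.11, DESeq2 adjusted p 0.012). Nrcam, a neural adhesion molecule that acts in Sema3 receptor complexes, held 104 to 151 normalized counts in control and 1103 to 1568 after CK666 (log2 3.52, SE 0.26, DESeq2 adjusted p 4.6e-41). Vegfd, a lymphatic growth factor that can bind Nrp2, fell by 1.92 on the log2 scale from 293 to 335 down to 72.5 to 95.8. Farp2, the exchange factor that carries the Sema3a signal to Rac, fell by 1.37, and Mras, a GTPase that plexins can inactivate, rose (log2 1.08). None of these ranges overlapped.

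After CytoD 4 pathway genes of 44 tested were higher and 1 lower, beside 4.8% and 4.32% of all genes. Hgf, the ligand of the plexin partner Met, held 1989 to 2234 normalized counts against 654 to 667 in control (log2 1.66, SE 0.22, DESeq2 adjusted p 1.5e-12), and Vegfd rose (log2 1.15). Fes, a kinase downstream of plexin-A1, also rose (log2 1.10, SE 0.23, adjusted p 1.1e-05). Rnd1, a GTPase that binds plexins, fell from 181 to 207 down to 34.0 to 44.6 (log2 -2.30, SE 0.22, adjusted p 2.5e-23). Between the drugs, 5 of 45 were higher and 4 lower in CK666 than in CytoD, beside 5.08% and 6.74%. Rnd1 (log2 2.79) and Nrcam (2.82) were higher in CK666, and Vegfd (-3.07) and Hgf (-1.98) were lower.

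Against siControl, 9 of 43 pathway genes tested were higher and 7 lower in siArp4, beside 6.69% and 9.49% of all genes. In siArp4+CK666 7 were higher and 8 lower, beside 8.06% and 12.4%. Cfl1, which severs actin filaments, held 8254 to 17838 normalized counts in siControl and 55601 to 63736 in siArp4 (log2 2.22, SE 0.29, DESeq2 adjusted p 5.0e-13). Dpysl2, the collapsin response mediator that binds tubulin, went from 1090 to 4105 in siControl down to 258 to 329 in siArp4 (log2 -3.13, SE 0.45, adjusted p 4.7e-11). Vegfb, a ligand that binds Nrp1, fell by 2.67 on the log2 scale and Fes by 2.72. In siArp4+CK666 Dpysl2 fell by 3.86 and Fes by 3.37. There the flavoprotein oxidases of actin went apart, with Mical1 at log2 -2.29 (SE 0.23, adjusted p 1.6e-22) and Mical2 at 2.18 (SE 0.39, adjusted p 2.1e-07), and neither range overlapped that of siControl.

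Adding CK666 to the knockdown gave 0 higher and 2 lower pathway genes of 43 tested, beside 1.63% and 4.12% of all genes. Fyn, a kinase of the Sema3a response, fell (log2 fold change just past -1, SE 0.18, DESeq2 adjusted p 1.6e-06), from 553 to 603 normalized counts down to 259 to 338, and Rnd1, below the mean count for naming in that comparison, was the other. In the difference between the CK666 effects 1 of 44 was higher and 4 lower, beside 1.9% and 2.52%. The 4 of them with a mean count of at least 100 were Nrcam (-2.89), Rnd1 (-2.19), Fyn (-1.83) and Vegfc (-1.67). Fyn and Rnd1 had positive CK666 effects without the knockdown (0.82 and 0.49, not called) and negative ones in it, where both were called (Rnd1 -1.69).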

How the data were processed

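RNA-seq of mouse MSC was available for 6 groups of 3 libraries. The authors quantified unstranded paired reads with Salmon 1.2.1 against GENCODE vM25 (GRCm38) and deposited estimated counts per gene, not scaled between samples. The summing of transcripts to genes is not given in the sources used here. Estimated counts were rounded to whole numbers. Symbols, coordinates and exon lengths came from GENCODE vM21 on the same build, in which 54094 of 54347 identifiers matched. DESeq2 1.42.0 (R 4.3.3), the tool of the study, was run per experiment (9 libraries) with group as the term, by two-sided Wald tests adjusted over all genes by Benjamini-Hochberg. The difference between CK666 effects was fitted over 18 libraries. Normalized counts used the size factors of their own experiment. Fits were tested on simulated data. Alternatives were edgeR 4.0.16 (quasi-likelihood), TMM factors, a count filter, a replicate block, a test against a log2 fold change of 1, no fold minimum, 1 fit over 18 libraries, each library left out, and, chosen after seeing the data, removal of the trend on transcript length. The members, the pathway list and the marker lists were chosen with earlier results of these data known. Per-library values are given for Sema3c and members called against a control, or in the difference, at a mean normalized count of at least 50. Pathway genes are named at a mean of at least 100, at most 4 per comparison by size. Others were named after their values were seen. The precision of low counts covers counting error only. Replicate numbers come from the labels, which do not say that they mark a shared preparation. Deviations of same-numbered libraries correlated at 0.10 to 0.24 in the 3 pairs of CK666 and control, and not over 0.1 in every pair of any other 2 groups.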

Additional observations from a re-analysis of the deposited data

Results flagged for a closer look

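Apart from Sema3c, the following results were singled out because the effect of CK666 differed between untransfected and Arp4-depleted cells by a test of the difference itself. Among the members this was Plxna2, with a difference of 1.15 on the log2 scale (DESeq2 adjusted p 0.0019), a call lost in edgeR (adjusted p 0.021). Sema3c, with a difference of -1.11, is listed as a description with no test. Its value draws on the siArp4 libraries that led to the choice of the family. The size was just under 1 without CK666 replicate 2, siArp4 replicate 3 or siArp4+CK666 replicate 3. Among the named pathway genes the results singled out were Nrcam (-2.89, adjusted p 2.7e-09), Rnd1 (-2.19, adjusted p 9.9e-10), Fyn (-1.83, adjusted p 3.8e-16) and Vegfc (-1.67, adjusted p 0.0014). Transfection and experiment differed in the same way as the knockdown and cannot be told apart from it.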

How the results depend on the processing

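Of 42 calls of a member in a comparison, 30 were also made under each alternative that gave an adjusted p, other than the test against a log2 fold change of 1. Over 732 values under alternatives, 646 kept their side of the threshold, 86 no longer passed it, and 0 changed sign. Testing against a log2 fold change of 1 left 1 called member for CK666, 1 for CytoD, 2 between the drugs, 3 for siArp4, 2 for siArp4+CK666 vs siControl, 0 for siArp4+CK666 vs siArp4 (1 at an unadjusted p under 0.05, against 3 calls in DESeq2 and 2 in edgeR) and 0 for the difference between CK666 effects (0 at an unadjusted p under 0.05, against 2 in DESeq2). For the pathway list it left 2, 1, 4, 4, 6, 0 (1 at an unadjusted p under 0.05) and 1 in the same order. With no fold minimum the pathway list had 18 calls for CK666, 15 for CytoD, 17 between the drugs and 4 for siArp4+CK666 vs siArp4. The shares of all genes called under the alternatives are not given here. Counts under alternatives are therefore set only against the main counts of the same list. In edgeR 6 members were called for siArp4+CK666 vs siControl, where Plxna3, Sema3f, Sema5a and Sema6d were lost, and 0 for the difference between CK666 effects, where 7 had an unadjusted p under 0.05. With the length trend removed, 1 member, Sema3c, stayed past the thresholds for the difference between CK666 effects, a value given as a description. In that setting 1 pathway gene was called in siArp4+CK666 vs siArp4.

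Leaving out 1 library at a time, called members ranged from 7 to 8 for CK666, 5 to 6 for CytoD, 5 to 6 between the drugs, 6 to 10 for siArp4, 7 to 12 for siArp4+CK666 vs siControl, 2 to 4 for siArp4+CK666 vs siArp4, and 0 to 3 for the difference, with 0 (7 at an unadjusted p under 0.05) without siArp4 replicate 3. Called pathway genes ranged from 1 to 2 for siArp4+CK666 vs siArp4. For CK666 and control, same-numbered libraries deviated together, while in the other pairs of groups at least 1 correlation was under 0.1, from -0.30 to 0.05 between CytoD and the rest and -0.54 to 0.74 in the second experiment. The replicate block gave 7, 6, 6, 8, 9, 3 and 2 called members and 5, 5, 9, 16, 15, 2 and 5 pathway genes, in the order CK666, CytoD, between the drugs, siArp4, siArp4+CK666 vs siControl, siArp4+CK666 vs siArp4 and the difference. Besides Vegfc after CK666, the block ended the siArp4+CK666 call of Sema3f (adjusted p 0.022), gave no adjusted p for Plxnb3 in siArp4, and added a call of Plxna3 in siArp4 (log2 -1.56, adjusted p 0.0036). By the length of the longest transcript, members over the count minimum moved by up to 2 ranks in control, and Sema3a passed Sema7a. The causes were not tested.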
